A study of Mus musculus with 4 samples.

Results

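The genes described here are the kinesins and the centromere proteins of the mouse, taken as every gene whose symbol begins with Kif and a digit or with Cenp and a letter and that held at least 20 unique molecular identifiers (UMIs, 1 per captured RNA molecule) over all libraries. The rule matched 61 of 32285 genes, and 58 passed the minimum, 37 with a Kif and 21 with a Cenp symbol. Kif2b and Kif12 had 0 UMIs and Kif26a had 12, just outside the minimum, while Kif6 with 27 and Kif16bos with 30 lay just inside it. By their known roles the members were divided into 11 mitotic kinesins, 15 kinesins that carry cargo or regulate microtubules in interphase cells (called transport kinesins below), 11 other kinesin symbols, 16 proteins of centromeric chromatin and the inner kinetochore, 2 outer kinetochore proteins (Cenpe and Cenpf) and 3 other Cenp genes (Cenpb, Cenpj and Cenpv). The other kinesin symbols include Kif1bp, which encodes a kinesin-binding protein and no motor, and Kif16bos, an antisense RNA.

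Single-cell RNA was sequenced from the spleens of 4 female C57BL/6J mice, 1 library per mouse. The 2 D3TA mice, aged 12 and 16 months, carried a global, constitutive CRISPR/Cas9 knock-in in Ccnd3 that replaces threonine 283 of cyclin D3 with alanine, in a line kept in the heterozygous state, and at these ages the line has severe signs of a myeloproliferative neoplasm. The 2 WT mice were matched for age and sex. No drug or other treatment is named, red cells were lysed, and as the mutation changes 1 codon only, Ccnd3 counts say nothing of whether the labels are right.

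Kinesins are motors that walk along microtubules or take them apart. Mitotic kinesins build the spindle, move and align chromosomes and finish cell division, and most of them are made only in dividing cells. Transport kinesins carry vesicles, organelles and RNA in all cells, including those that no longer divide. The inner kinetochore sits on centromeric chromatin, which is marked by the histone H3 variant encoded by Cenpa, and the outer kinetochore binds the spindle. In the mouse spleen, red cell precursors divide throughout life, granulocyte precursors divide where blood formation has moved to the spleen, and circulating neutrophils and most lymphocytes rest.

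Many genes of late cell cycle carry in their promoters the cell cycle genes homology region, a short element of the letters TTTGAA or TTTAAA that binds repressor and activator complexes of dividing cells, often near a CCAAT box. The promoters in RefSeq (GRCm38.p6, the build the counts were made on, from 250 bases before to 50 bases after a start) held an entry for 50 of the 58 members. TTTGAA, read on either strand, was in the promoters of 9 of the 10 mitotic kinesins with an entry, all but Kif18a, against 17.9% of all 32851 promoters. It was in 1 of 11 transport kinesins, 4 of 16 inner kinetochore genes and 1 of the 2 outer kinetochore genes. Counted from the start, the match began between base -19 and base 20 in Kif11, Kif15, Kif18b, Kif20b, Kif22, Kif23 and Kif4, and at -228 and -103 in Kif14 and Kif2c. A match of 6 letters is a description of the sequence and not a binding site. For this and the other motifs a member counted if any of its promoter entries held the match. The share over all promoters is per entry, so the units differ for members with more than 1 entry. Stretches around the start are shown 5′ to 3′ for 6 mitotic kinesins and for Cenpf, with the match in capitals (TTCAAA is TTTGAA on the other strand), beside an inner kinetochore gene and a transport kinesin whose promoters lack TTTGAA and TTTAAA, because the groups named by them part in the values below. The stretches lie at chr19:37376297-37376396, plus strand, for Kif11, chr9:122950996-122951067, plus, for Kif15, chr11:102925110-102925209, minus, for Kif18b, chr19:34922273-34922381, plus, for Kif20b, chr9:61946780-61946884, minus, for Kif23, chr4:117178832-117178897, minus, for Kif2c, chr1:189688072-189688171, minus, for Cenpf, chr13:100775900-100775984, minus, for Cenph, and chr2:49619201-49619285, plus, for Kif5c.
Kif11: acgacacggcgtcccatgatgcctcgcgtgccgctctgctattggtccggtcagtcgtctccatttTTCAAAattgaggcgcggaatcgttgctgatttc
Kif15: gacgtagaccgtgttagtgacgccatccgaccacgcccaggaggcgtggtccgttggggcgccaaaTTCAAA
Kif18b: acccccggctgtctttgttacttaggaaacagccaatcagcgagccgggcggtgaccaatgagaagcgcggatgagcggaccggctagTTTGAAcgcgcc
Kif20b: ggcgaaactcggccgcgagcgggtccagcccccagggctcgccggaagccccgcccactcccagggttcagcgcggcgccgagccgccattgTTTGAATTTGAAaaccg
Kif23: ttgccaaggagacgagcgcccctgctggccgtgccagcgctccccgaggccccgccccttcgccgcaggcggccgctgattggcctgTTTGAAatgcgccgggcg
Kif2c: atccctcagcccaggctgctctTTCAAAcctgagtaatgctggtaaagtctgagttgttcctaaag
Cenpf: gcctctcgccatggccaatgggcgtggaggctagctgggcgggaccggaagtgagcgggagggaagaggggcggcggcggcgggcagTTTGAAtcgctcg
Cenph: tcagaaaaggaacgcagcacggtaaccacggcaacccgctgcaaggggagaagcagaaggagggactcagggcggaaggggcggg
Kif5c: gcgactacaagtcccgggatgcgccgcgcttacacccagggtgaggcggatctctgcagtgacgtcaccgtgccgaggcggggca

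TTTGAA or TTTAAA together were in 9 of 10 mitotic kinesins, both outer kinetochore genes, 6 of 16 inner kinetochore genes and 1 of 11 transport kinesins (Kif1a), against 27.6% of all promoters. CCAAT on either strand was in 6 of 10 mitotic kinesins, both outer and 12 of 16 inner kinetochore genes and 3 of 11 transport kinesins, against 37.4% of all promoters. An E2F-type motif, searched on both strands as TTTCGCGC, TTTGGCGC, TTTCCCGC or TTTGCCGC, was in 2 of 10 mitotic kinesins, 3 of 16 inner kinetochore genes and 0 of 11 transport kinesins, against 2.26% of all promoters. None of these motifs contains another, though matches of different motifs may share bases.

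The 4 matrices held 64410 cell barcodes, of which 53945 cells were kept, and total UMIs of 81416981 to 143811696 per library. WT replicate 1 stood apart in depth, with a median of 1394 UMIs in 22619 kept cells against 7698 to 8111 in the other libraries. Any pair of libraries shared 32 to 127 barcodes. Cells were assigned to 13 classes by fixed marker genes, which placed 47207 cells, and each library's UMIs were summed within a class (its gate). Levels are given as CPM (the UMIs of a gene in such a sum, scaled so that all genes of the sum add up to the same fixed total in every library), so fewer cells of a type and less RNA per cell cannot be told apart in a sum over the whole spleen. With 2 mice per genotype, p-values measure only the spread between these mice.

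In the whole spleen the mitotic arm of the family was higher in D3TA, and the transport motors, with few exceptions, did not pass the test. All 11 mitotic kinesins rose, by a median log2 fold change of 1.85 (range 0.98 to 2.33), beside a median of 0.00 over all 18426 genes tested. Both outer kinetochore genes and 9 of the 16 inner kinetochore genes rose too (median 1.43 over the 16), against 2 of 15 transport kinesins (median 0.34). Of 56 members tested, 24 were called higher and 0 lower by edgeR's quasi-likelihood test at an adjusted p under 0.05, where 5.66% of all genes were called higher and 0.347% lower. Kif6 and Kif16bos did not pass the filter on low counts. By DESeq2, 27 were called higher and 1 lower (13.4% of all genes in either direction).

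Among the motors that build the spindle, Kif11, which slides antiparallel microtubules apart to separate the poles, was at 20.1 and 23.1 CPM in the WT libraries and 82.7 and 83.2 CPM in the D3TA libraries (log2 fold change 2.03 ± 0.17 SE, adjusted p = 0.00871). Kif15, which keeps the poles apart alongside Kif11, was at 14.9 and 19.3 CPM in the WT libraries and 68.2 and 70.1 CPM in the D3TA libraries (log2 fold change 2.11 ± 0.19 SE, adjusted p = 0.0104). In both genes the D3TA libraries lay far above the WT libraries and close to each other. Kif2c, which takes microtubule ends apart at the kinetochore, had the highest fold of the mitotic kinesins, with 3.13 and 3.804 CPM in the WT libraries and 17.02 and 15.7 CPM in the D3TA libraries (log2 fold change 2.33 ± 0.22 SE, adjusted p = 0.011). Of the chromosome-arm motors, Kif22 was at 7.45 and 9.35 CPM in the WT libraries and 36.2 and 28.6 CPM in the D3TA libraries. Kif4, which shortens and organises the central spindle, was at 9.24 and 12.3 CPM in the WT libraries and 37.7 and 32.6 CPM in the D3TA libraries. The groups did not overlap in either. Kif18a, which holds chromosomes at the spindle equator, was at 13.4 and 14.6 CPM in WT and 25.3 and 26.4 CPM in D3TA. It had the smallest fold of the mitotic kinesins (0.98). Kif18b was at 3.96 and 4.27 CPM in WT and 14.2 and 13.6 CPM in D3TA.

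The motors of cell separation moved alike. Kif23, the motor of the central spindle complex that sets the cleavage furrow, was at 17.9 and 18.4 CPM in the WT libraries and 57.2 and 53.7 CPM in the D3TA libraries (log2 fold change 1.70 ± 0.16 SE, adjusted p = 0.011). Kif20a, which brings the chromosomal passenger complex to the midzone, was at 4.001 and 4.94 CPM in the WT libraries and 16.1 and 14.6 CPM in the D3TA libraries. Kif20b, a further motor of late cytokinesis, was at 23.4 and 21.6 CPM in the WT libraries and 49.1 and 44.7 CPM in the D3TA libraries (log2 fold change 1.16 ± 0.17 SE, adjusted p = 0.0265). Kif14, which recruits citron kinase to the midbody, was at 4.74 and 6.16 CPM in the WT libraries and 19.2 and 17.4 CPM in the D3TA libraries. The D3TA libraries were above both WT libraries for every mitotic kinesin, in 11 of 11, as they were for 25% of all genes tested.

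At the outer kinetochore, Cenpf, a large coiled-coil protein that binds microtubules, was at 24.2 and 30.4 CPM in the WT libraries and 106 and 87.9 CPM in the D3TA libraries (log2 fold change 1.92 ± 0.22 SE, adjusted p = 0.0152). Cenpe, itself a kinesin that carries chromosomes to the equator, was at 21.1 and 26.04 CPM in the WT libraries and 77.1 and 64.8 CPM in the D3TA libraries (log2 fold change 1.69 ± 0.21 SE, adjusted p = 0.0186). At the inner kinetochore, Cenpa was at 32.9 and 37.4 CPM in the WT libraries and 106 and 73.7 CPM in the D3TA libraries (log2 fold change 1.46 ± 0.26 SE, adjusted p = 0.0436). The other 8 members called there were Cenpp, Cenph, Cenpi, Cenpk, Cenpw, Cenpn, Cenpu and Cenpl, with log2 fold changes of 1.32 to 1.67. Cenpp was at 28.2 and 35.5 CPM in WT and 79.04 and 83.1 CPM in D3TA, and its gene overlaps 6 annotated genes on the other strand, whose reads the sources used here do not say were kept apart. Cenph was at 9.498 and 11.2 CPM in WT and 33.6 and 28.02 CPM in D3TA, Cenpk at 8.14 and 10.3 CPM in WT and 27.6 and 23.3 CPM in D3TA and Cenpw at 12.3 and 12.6 CPM in WT and 37.2 and 29.6 CPM in D3TA, again with no overlap. The 7 that were not called include Cenpc1, the scaffold of the inner kinetochore, at 43.5 and 45.6 CPM in WT and 48.6 and 60.7 CPM in D3TA (adjusted p = 0.234), Cenpx at 52.4 and 53.5 CPM in WT and 76.9 and 47.6 CPM in D3TA (adjusted p = 0.533) and Cenpq at 26.8 and 25.4 CPM in WT and 32.97 and 29.3 CPM in D3TA (adjusted p = 0.306). Not all of the uncalled genes were flat. Cenpm had a log2 fold change of 1.66 (adjusted p = 0.0646), Cenpt 0.84 (adjusted p = 0.0968), Cenps 0.78 (adjusted p = 0.177) and Cenpo -0.12 (adjusted p = 0.677). Cenpx and its partner Cenps also act in DNA repair.

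Of the transport kinesins, Kif13a, which moves endosomes and receptors, was at 16.2 and 19.3 CPM in the WT libraries and 29.7 and 42.7 CPM in the D3TA libraries (log2 fold change 1.11 ± 0.21 SE, adjusted p = 0.0482). Kif17, known for carrying receptors in neurons, was at 0.3196 and 0.222 CPM in the WT libraries and 2.03 and 2.08 CPM in the D3TA libraries (log2 fold change 3.01 ± 0.38 SE, adjusted p = 0.0183), and its gene overlaps Sh2d5 on the same strand. These were the only transport kinesins called. Kif5b, the heavy chain of conventional kinesin, was at 177 and 179.5 CPM in the WT libraries and 172 and 213 CPM in the D3TA libraries (adjusted p = 0.548). Kif13b, which binds the scaffold protein Dlg1, was at 69.5 and 79.8 CPM in the WT libraries and 104 and 95.4 CPM in the D3TA libraries (adjusted p = 0.187). Kif1b, a carrier of mitochondria and synaptic vesicle precursors, was at 56.3 and 71.5 CPM in the WT libraries and 55.3 and 99.1 CPM in the D3TA libraries. Kif21b, which also limits microtubule growth, was at 74.1 and 69.8 CPM in the WT libraries and 52.7 and 68.7 CPM in the D3TA libraries. Kif16b, an early endosome motor, was at 60.6 and 61.1 CPM in the WT libraries and 39.8 and 61.97 CPM in the D3TA libraries. For Kif1b and Kif16b the D3TA libraries lay on both sides of WT, and for Kif21b both lay below both WT libraries. Of the heterotrimeric kinesin, Kif3b was at 32.4 and 32.4 CPM in WT and 37.3 and 39.2 CPM in D3TA, Kif3a at 3.797 and 4.18 CPM in WT and 3.85 and 4.18 CPM in D3TA and Kif3c at 7.75 and 7.503 CPM in WT and 4.298 and 6.198 CPM in D3TA. Kif1c, a motor of dense-core vesicles and podosomes, was at 13.2 and 13.4 CPM in WT and 8.89 and 13.2 CPM in D3TA, and Kif5c at 3.32 and 5.29 CPM in WT and 8.52 and 4.42 CPM in D3TA. None of these passed the test, and Kif1a, Kif5a and Kif21a stayed under 1 CPM in every library.

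No other kinesin and no other Cenp gene was called by edgeR, with 2 of the 9 tested other kinesins and 1 of the 3 other Cenp genes at an unadjusted p under 0.05 (DESeq2 called 1 other kinesin higher and 1 lower). Kif2a, a microtubule depolymerase of interphase and mitosis, was at 73.4 and 71.1 CPM in WT and 75.6 and 88.8 CPM in D3TA. Kif9, a motor of motile cilia, was at 11.1 and 13.5 CPM in WT and 4.32 and 7.74 CPM in D3TA (log2 fold change -0.95, adjusted p = 0.153). Cenpb, which binds centromeric repeats, was at 25.9 and 27.6 CPM in WT and 26.2 and 24.1 CPM in D3TA, and Cenpj, a centriole assembly factor, was at 17.99 and 16.4 CPM in WT and 22.5 and 24.2 CPM in D3TA. Of the 31 further kinetochore and spindle genes that are no members, 24 of the 30 tested rose, led by Ska1, Nuf2 and Spc25 with log2 fold changes of 2.41, 2.22 and 2.17. Of the 17 cargo adaptors, light chains and dynein partners of transport, 0 of 15 tested were called by edgeR (1 at an unadjusted p under 0.05) and 0 by DESeq2.

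**Figure D1:**
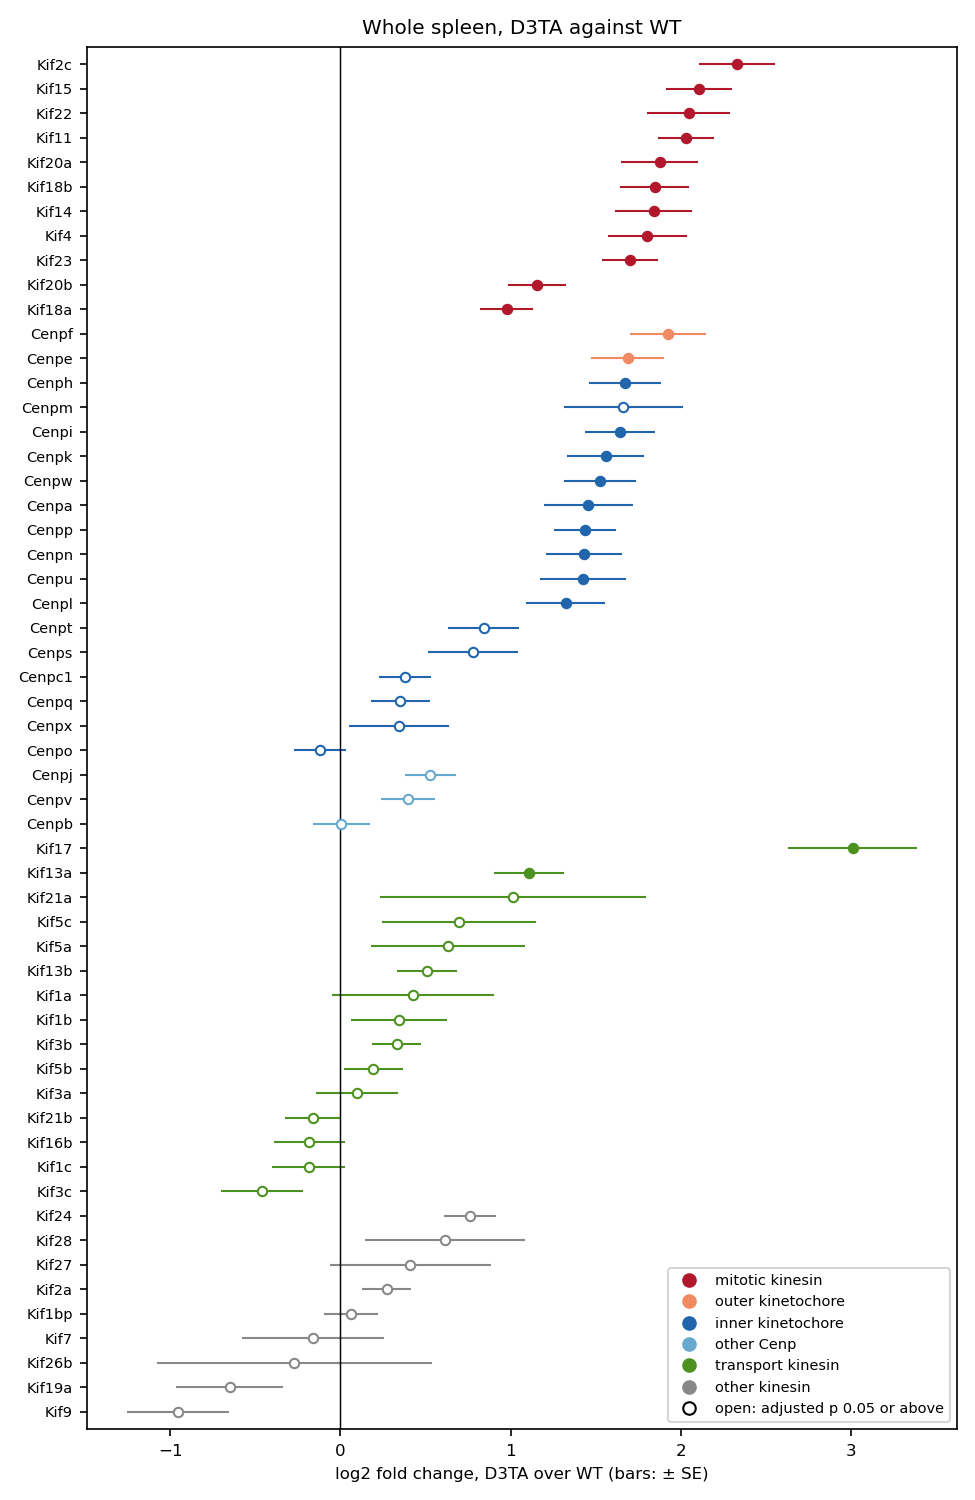
Log2 fold change of each tested member in the whole spleen, D3TA over WT (2 libraries each), with bars of ± 1 SE and members sorted within the groups given by colour. Filled points passed an adjusted p of 0.05: all mitotic kinesins and Cenpe and Cenpf lie to the right of 0 and are filled, while 13 of 15 transport kinesins are open.

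The whole-spleen calls rest on which cells are summed and on each WT library. The summed level of the 12 immature neutrophil markers was 310.8 and 616 CPM in WT and 29090 and 18540 CPM in D3TA, with 12 of 12 higher in both D3TA libraries and none at 0. Without the cells gated as neutrophil lineage, 0 of 56 members and 0% of 18081 genes were called (26 members at an unadjusted p under 0.05), and the median of the mitotic kinesins was 1.22. Without cycling-gated cells and those too shallow to be thinned, an added choice, 1 member, Kif11, was called (1.61% of genes) and that median was 1.78. That gate was applied to thinned cells, and in every library a larger share of cells met its cut unthinned (given below). Without WT replicate 1 only Kif2c was called (1.91% of genes) and without WT replicate 2 no member was (25 at an unadjusted p under 0.05), with mitotic kinesin medians of 1.72 and 2.03. The remaining WT library was then assumed to vary as the D3TA libraries do.

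The cells that supplied these UMIs differed by genotype. Of the UMIs of the mitotic kinesins with Cenpe and Cenpf, cells gated as immature neutrophils held 44.4% and 43.4% in D3TA and 1.96% and 1.82% in WT. B cells held 41.2% and 27.4% of them in WT and 8.95% and 10.9% in D3TA, and erythroid cells held 23.7% and 37.1% in WT and 14.9% and 21.25% in D3TA. Of the transport kinesins' UMIs, B cells held 59.7% and 59.02% in WT and 16.35% and 31.3% in D3TA, while immature neutrophils held 28.8% and 22.8% in D3TA. These gates differ in size: immature neutrophils were 11 and 20 cells in WT and 2824 and 1673 in D3TA.

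**Figure D2:**
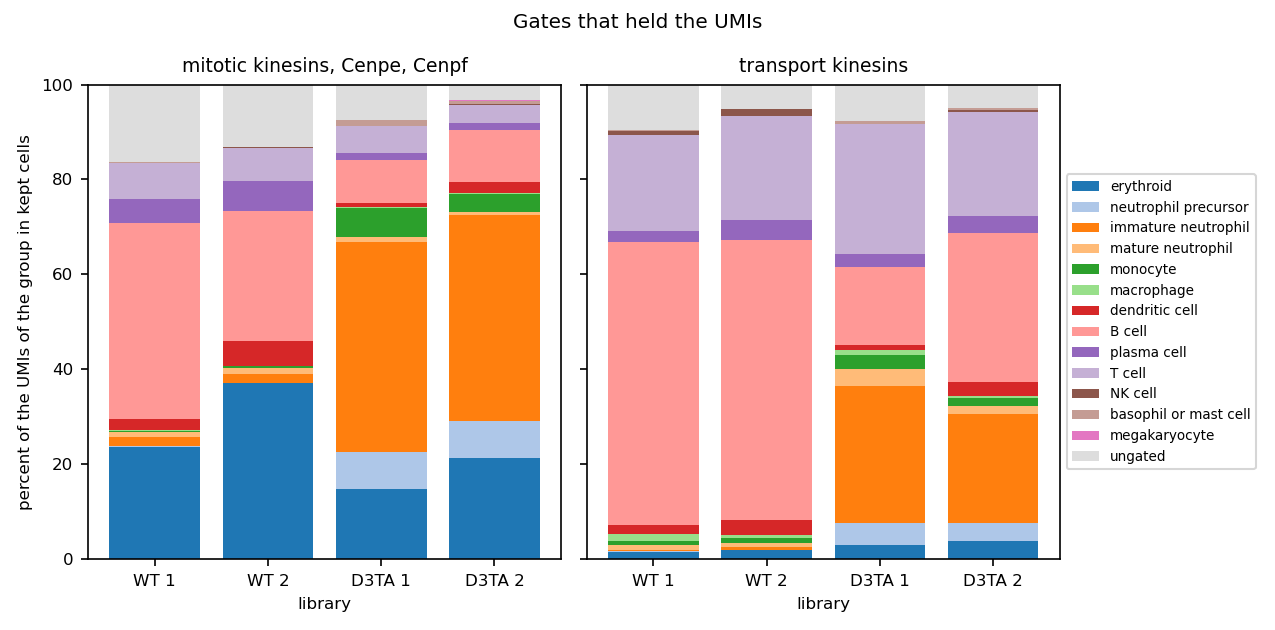
Percent of the UMIs in kept cells that each marker gate held in each library, for the mitotic kinesins with Cenpe and Cenpf (left) and for the transport kinesins (right). The immature neutrophil share of the left bars is 44.4% and 43.4% in D3TA and 1.96% and 1.82% in WT.

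The share of cells gated as cycling was 3.24% and 2.56% in WT (mean 2.90% ± 0.48 SD, n = 2) and 15.7% and 10.8% in D3TA (mean 13.25% ± 3.44 SD, n = 2), after each cell was thinned to 1000 UMIs. A cell was gated by at least 4 of 23 S phase genes or 3 of 19 G2/M genes, none of them a member, and shallower kept cells were left out, 7416 of them in WT replicate 1 and 257 to 550 in each other library. The difference of 10.35 percentage points gave p = 0.333 in a two-sided exact permutation test, the smallest that 2 against 2 allows. Unthinned, the shares were 9.04% and 22.9% in WT and 44.8% and 36.2% in D3TA.

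Across the classes, members were compared within all 4 libraries, each class against the mean of the others with the library as a block, over 13968 genes. Erythroid cells, the nucleated red cell precursors, led the mitotic group. Kif11 was at 240.3, 258, 202 and 250.3 CPM there in WT 1, WT 2, D3TA 1 and D3TA 2, against 10.9, 7.46, 30.6 and 22.1 CPM in B cells. All 11 mitotic kinesins, both outer kinetochore genes and all 16 inner kinetochore genes were higher in erythroid cells, where 35.2% of all genes were called higher, with a mitotic kinesin median of 2.89 against -0.20 over all genes. Cenpf was at 325, 388, 298 and 275 CPM and Cenpa at 294, 322, 306 and 298 CPM. After thinning, 63.02% to 82.3% of erythroid cells were gated as cycling in each library.

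Transport kinesins went the other way in erythroid cells, where 9 of 14 tested were lower (34.7% of all genes were) and 1 was higher. Kif1b was at 13.9, 5.82, 4.52 and 5.26 CPM in erythroid and 35.5, 59.5, 26.04 and 56.5 CPM in B cells (log2 difference from the other classes -3.74, adjusted p = 1.02e-14). Kif21b was at 9.95, 7.53, 4.14 and 5.51 CPM in erythroid and 71.6, 70.97, 40.0 and 68.1 CPM in B cells (-3.05). Kif5b was closer, with 125, 145, 135 and 158 CPM in erythroid and 176, 179, 138 and 203 CPM in B cells (-0.56, adjusted p = 8.14e-06). The exception was Kif3a, a subunit of the heterotrimeric motor that builds cilia, at 13.4, 13.3, 20.4 and 18.02 CPM in erythroid and 3.39, 3.37, 2.19 and 3.38 CPM in B cells (2.34 ± 0.23 SE, adjusted p = 4.75e-11). Its partner Kif3b did not follow, with 12.9, 14.7, 13.7 and 20.9 CPM in erythroid cells (-1.41). Cenpv, named for the centromere but also known to stabilise microtubules, was at 154, 128, 107 and 134 CPM in erythroid cells and 5.88, 4.42, 8.87 and 6.18 CPM in B cells (log2 fold change 3.33 ± 0.20 SE, adjusted p = 9.61e-17). In each library the erythroid level of every gene named here lay on the same side of its B cell level, although the ranges of Kif5b over libraries overlapped.

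**Figure D3:**
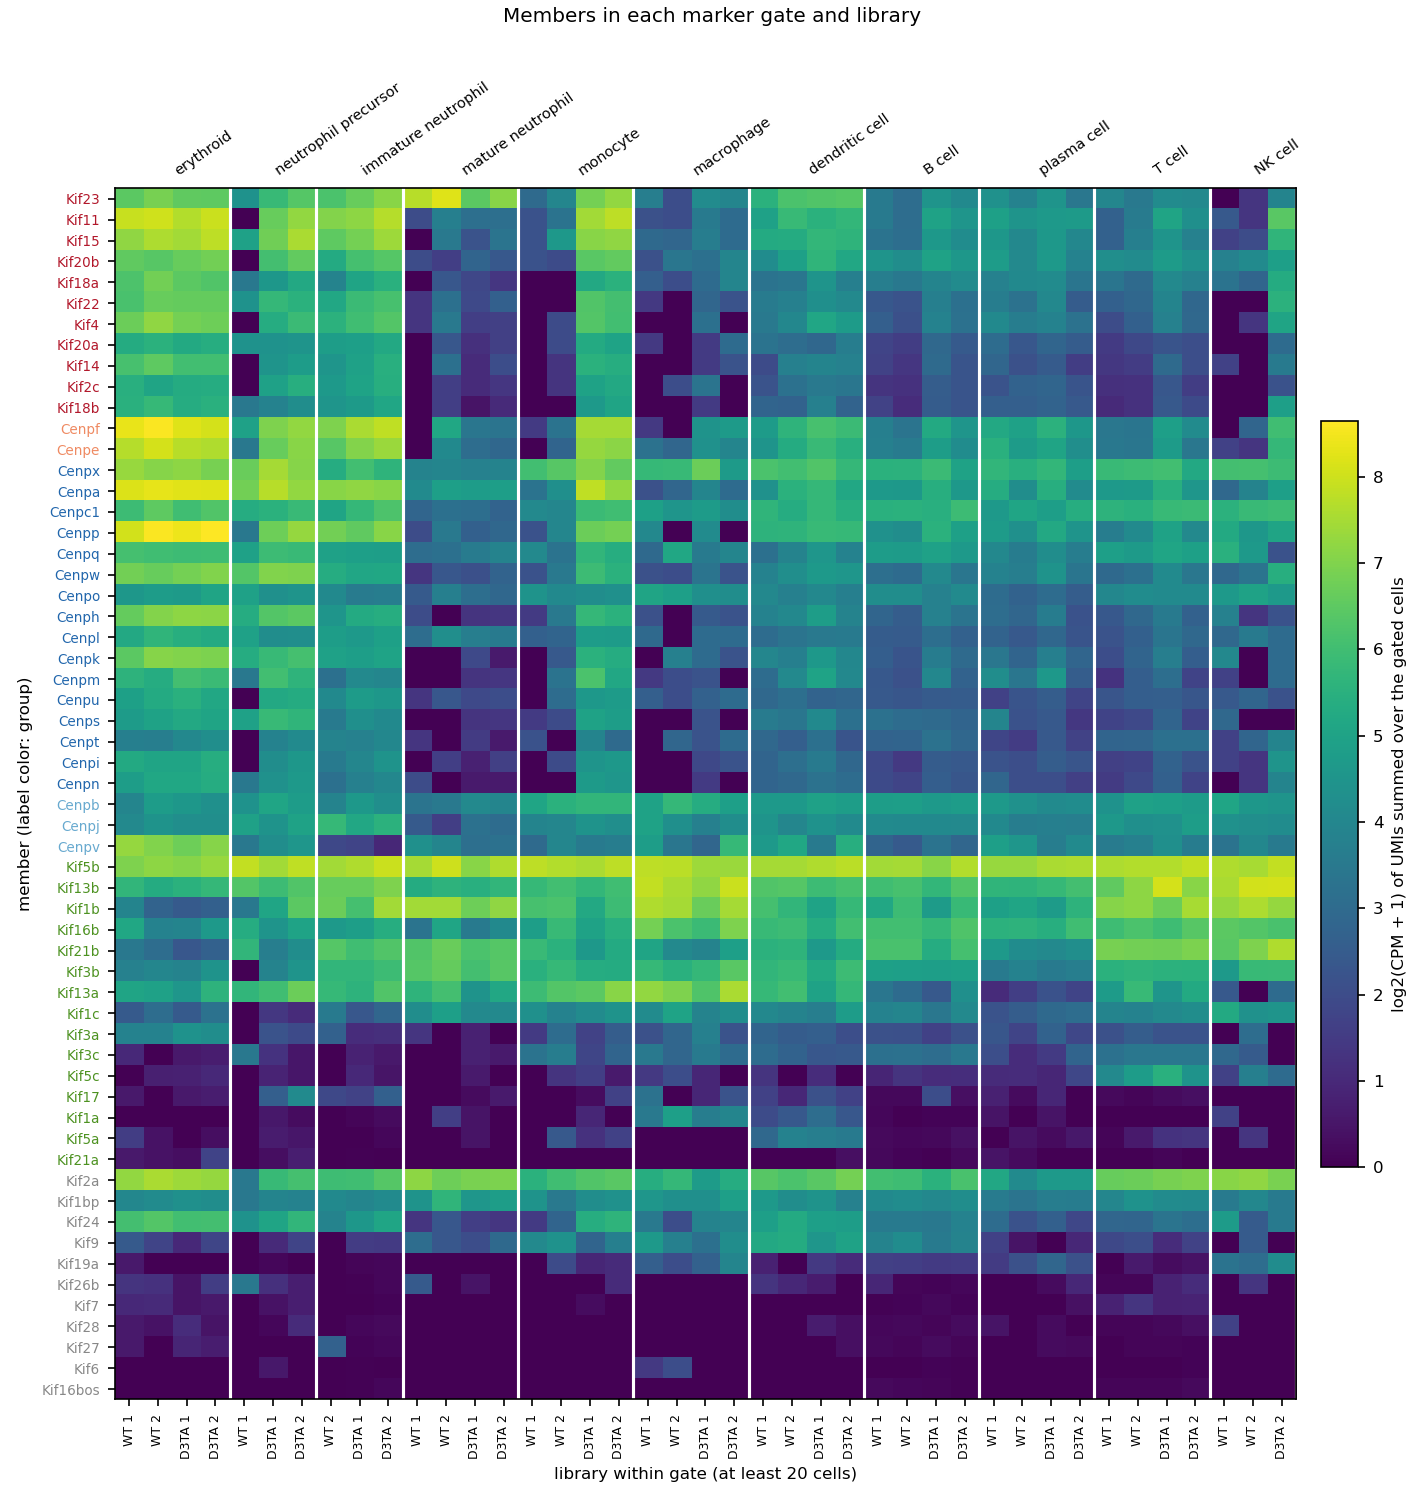
Level of every member, as log2(CPM + 1) of UMIs summed over the cells of a gate, with 1 column per library that had at least 20 cells in the gate and gene names coloured by group. Erythroid and immature neutrophil columns are bright over the mitotic and kinetochore rows, and Kif23 is the mitotic row that stays bright in mature neutrophils.

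The neutrophil lineage divided the members by maturity. Immature neutrophils, the granule-filled precursors, had 10 of 11 mitotic kinesins, both outer and all 16 inner kinetochore genes above mature neutrophils, where 28% of all genes were called higher (mitotic kinesin median 4.23 against 0.24 over all genes). Kif11 was at 132, 142 and 204 CPM in the immature cells of WT 2, D3TA 1 and D3TA 2, and at 3.001, 12.3, 8.04 and 7.91 CPM in the mature cells of WT 1, WT 2, D3TA 1 and D3TA 2 (4.31 ± 0.70 SE, adjusted p = 4.48e-06). WT 1, with 11 immature cells, stayed out of the fit under the minimum of 20 cells. The exception was Kif23 (chr9:61915905-61946774, minus strand, with no overlapping annotated gene). Mature neutrophils held Kif23 at 210.0, 298, 88.7 and 136 CPM, from 140, 145, 485 and 258 UMIs, and the immature cells at 72.8, 99.8 and 136 CPM in WT 2, D3TA 1 and D3TA 2 (log2 difference, immature minus mature, -0.70 ± 0.45 SE, adjusted p = 0.217).

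Against the other classes, mature neutrophils had Kif23 higher by 2.98 ± 0.28 SE (log2, adjusted p = 1.8e-11), while the other 10 mitotic kinesins were lower, by values of -1.68 to -3.14. There 29.5% of all genes were called higher and 35.3% lower, with a median of -0.30. Kif23 was called with each library left out in turn, at 2.60 to 3.56, whereas without D3TA replicate 1 the counts of called members fell from 43 to 25 and 7 of the other mitotic kinesins, Kif11 among them, were not called. In mature neutrophils not gated as cycling it was 213, 289, 88.4 and 135 CPM, beside 3.203, 4.29, 7.92 and 6.497 CPM for Kif11 and 4.804, 2.14, 25.1 and 20.03 CPM for the proliferation marker Mki67. B cells held Kif23 at 10.9, 7.56, 21.3 and 16.2 CPM and T cells at 14.6, 10.2, 17.2 and 15.7 CPM, so the level in mature neutrophils lay above both in every library. Within mature neutrophils the D3TA libraries were below WT without passing the test (log2 fold change -0.90 ± 0.23 SE, adjusted p = 0.0858). In the same gate the 12 immature neutrophil markers summed to 1287 and 892.9 CPM in WT and 9348 and 9096 CPM in D3TA, with 11 of 12 higher in both D3TA libraries and none at 0, and their part in that value was not tested. Several transport kinesins were also higher in mature neutrophils than in the other classes. They were Kif3b (1.77), Kif1b (1.76), Kif21b (1.67), Kif1c (1.40), Kif13a (0.94) and Kif5b (0.42). From immature to mature cells Kif1c and Kif3b were higher in the mature cells (17.6% of all genes were), and Kif13b, Kif16b, Kif13a and Kif17 in the immature ones, of which Kif16b lost its call without D3TA replicate 1, Kif17 without D3TA replicate 2, Kif13a without either of those, and Kif3b without WT replicate 2 or D3TA replicate 2.

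T and B lymphocytes, both mostly at rest, differed in transport and not detectably in mitotic motors. Of 14 transport kinesins tested, 7 were higher in T cells (17.1% of 13968 genes were) and 2 lower (16.1%). Kif5c, a conventional kinesin heavy chain best known from neurons, was at 15.9, 26.6, 44.4 and 20.9 CPM in the T cells of WT 1, WT 2, D3TA 1 and D3TA 2 and at 0.848, 1.44, 1.12 and 1.21 CPM in B cells (4.34 ± 0.35 SE, adjusted p = 2.25e-12). Kif1b was at 135, 144, 105 and 183 CPM in T cells and 35.5, 59.5, 26.04 and 56.5 CPM in B cells (1.60 ± 0.24 SE). Kif13a was at 26.04, 56.4, 21.6 and 37.4 CPM in T cells and 9.57, 7.11, 4.34 and 18.7 CPM in B cells (1.79 ± 0.26 SE). Each of these was higher in T than in B cells in all 4 libraries, as were Kif13b, Kif21b and Kif3b, and Kif5a was higher in 3 of 4. Kif17 was called lower in T cells (-2.11), but its B cell level came mostly from D3TA replicate 1, with 0.138, 0.144, 3.09 and 0.277 CPM, and without that library the difference was 0.02. Of the other kinesins, Kif9 was at 2.70, 3.25, 1.13 and 2.29 CPM in T cells and 13.5, 17.3, 10.5 and 13.5 CPM in B cells (-2.72), and Kif19a at 0, 0.541, 0.226 and 0.343 CPM and 2.15, 2.05, 1.75 and 1.89 CPM (-2.96). Both are motors of cilia. Kif1a, the other transport kinesin called lower, had 0 UMIs in T cells and 1 to 5 UMIs in each B cell library, and lost its call when WT replicate 1 or either D3TA library was left out. Kif17 lost its call without WT replicate 2 as well. Kif3b lost its call without D3TA replicate 2, and Kif5a without that library or WT replicate 2. No mitotic kinesin was called between T and B cells by edgeR or DESeq2, with 0 at an unadjusted p under 0.05.

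Some transport motors were higher in macrophages or dendritic cells than in the mean of the other classes. Macrophages, the phagocytes of the splenic pulp, had 7 transport kinesins above the other classes (21% of all genes were higher and 22.2% lower) and 10 of 11 mitotic kinesins below. Kif1a, a vesicle motor best known from neurons, was at 10.3, 28.3, 11.7 and 14.4 CPM in the macrophages of WT 1, WT 2, D3TA 1 and D3TA 2, at 2.93, 4.24, 7.51 and 4.06 CPM in dendritic cells, under 1 CPM in monocytes and B cells and at 0 UMIs in T cells (macrophages against the others, adjusted p = 3.43e-11, with no fold given because classes at 0 enter the contrast). Kif13a was at 152, 126, 76.3 and 188 CPM in macrophages, 59.5, 78.95, 87.6 and 138 CPM in monocytes, 54.2, 64.5, 30.6 and 53.02 CPM in dendritic cells and only 1.09, 2.07, 3.56 and 2.43 CPM in plasma cells (macrophages against the others, log2 fold change 2.09 ± 0.22 SE, adjusted p = 7.07e-10). Monocytes were above the other classes in Kif13a too (log2 fold change 1.74 ± 0.20 SE, adjusted p = 8.81e-09). Of the classes named, macrophages had the highest level of Kif1a in each library, and of Kif13a in all but D3TA replicate 1, where monocytes were higher. Dendritic cells, which present antigen, had Kif5a, a conventional kinesin heavy chain of neurons, at 6.59, 13.2, 12.1 and 10.6 CPM against 0 UMIs in every macrophage library and 0, 4.39, 1.37 and 2.15 CPM in monocytes (dendritic cells against the others, adjusted p = 1.04e-10, where 25.6% of genes were higher and 13.5% lower). Kif9 was higher in dendritic cells too, at 36.6, 38.6, 22.5 and 30.6 CPM (log2 fold change 2.92 ± 0.21 SE, adjusted p = 8.24e-14). Dendritic cells had 1 of 11 mitotic kinesins, Kif23, called higher and 0 lower. Without either D3TA library the calls of lower mitotic kinesins in macrophages fell from 10 to 3, and without WT replicate 2 Kif23 was not called in dendritic cells. Kif1a, Kif13a, Kif5a and Kif9 kept the calls given here with each library left out in turn. Over all barcodes Kif1a had 138 UMIs and Kif5a 270, so their levels rest on few molecules. The macrophage gate was also shallow, with median UMIs of 1986, 1596, 1589 and 981 per cell in WT 1, WT 2, D3TA 1 and D3TA 2.

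Within a gate, the genotype difference reached the threshold for members in the monocyte gate alone among the 8 gates tested. Of 44 members tested there, 27 were called higher in D3TA and 0 lower by edgeR, where 6.64% of 9223 genes were called higher and 4.39% lower, and DESeq2 called 24 (7.45% of genes). They were all 11 mitotic kinesins, Cenpe, Cenpf, 13 of 15 inner kinetochore genes and Kif24, a kinesin of the centriole. The mitotic kinesin median was 5.25 (4.78 with genes at 0 in WT set to their bounds), against 0.00 over all genes. Of the 9 transport kinesins tested, 0 were called by edgeR or DESeq2 (3 at an unadjusted p under 0.05, median -0.24).

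Kif11 was at 3.499 and 8.77 CPM in the WT libraries and 174 and 218 CPM in the D3TA libraries in this gate (log2 fold change 4.91 ± 0.41 SE, adjusted p = 1.89e-06). Cenpf was at 1.75 and 8.77 CPM in the WT libraries and 176 and 176 CPM in the D3TA libraries (log2 fold change 4.96 ± 0.44 SE, adjusted p = 2.58e-06). In both, the WT libraries were near 0 and the D3TA libraries were at the level of the erythroid gate or below it. Kif23 was at 6.997 and 14.6 CPM in the WT libraries and 114 and 149.6 CPM in the D3TA libraries and Kif15 at 3.499 and 23.4 CPM in the WT libraries and 138 and 149 CPM in the D3TA libraries. Kif20b was at 3.499 and 2.92 CPM in the WT libraries and 86.7 and 94.7 CPM in the D3TA libraries. Both D3TA libraries were above both WT libraries for all 11 mitotic kinesins, and for 28.9% of all genes tested. Kif22, Kif18a, Kif18b and Cenpn had 0 UMIs in both WT libraries, where 3 UMIs over the group would be 2.39 CPM, and were at least 31.1-fold, 16.2-fold, 11.3-fold and 10.3-fold higher in D3TA. These genes, which are among the members called, passed the filter on low counts through their D3TA counts alone. They could therefore not be called lower. Kif24 was at 1.75 and 5.85 CPM in the WT libraries and 40.6 and 48.98 CPM in the D3TA libraries (log2 fold change 3.45 ± 0.52 SE, adjusted p = 0.000275). By contrast Kif5b was at 220.4 and 202 CPM in the WT libraries and 189 and 219 CPM in the D3TA libraries, and Kif13a at 59.5 and 78.95 CPM in the WT libraries and 87.6 and 138 CPM in the D3TA libraries (adjusted p = 0.191).

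The gate held different monocytes in the 2 genotypes. It had 105 and 62 cells in WT and 257 and 131 in D3TA, with median UMIs of 2351, 10860, 14957 and 12781. Ly6c2, of classical monocytes, was at 632 and 579 CPM in the WT libraries and 2370 and 1559 CPM in the D3TA libraries. Ace, of patrolling monocytes, was at 264 and 246 CPM in the WT libraries and 22.4 and 52.2 CPM in the D3TA libraries, and Treml4 at 114 and 118 CPM in the WT libraries and 13.2 and 29.1 CPM in the D3TA libraries. The 10 monocyte markers together summed to 5070 and 5028 CPM in WT and 6295 and 6779 CPM in D3TA. The share of its cells gated as cycling was 0% and 1.61% in WT, where 0 of 86 cells allows up to 4.199% (exact 95% binomial interval), and 43.9% and 35.2% in D3TA. The 12 immature neutrophil markers summed to 729.5 and 820.2 CPM in WT and 2783 and 2131 CPM in D3TA, with 11 of 12 higher in D3TA and none at 0, and the 6 neutrophil precursor markers to 8.75 and 155.0 against 680.7 and 380.0 CPM. Camp, a granule gene of immature neutrophils, was at 418 and 174 CPM in the D3TA monocytes, 456 and 261 CPM in D3TA T cells and 39960 and 32600 CPM in D3TA immature neutrophils. In those immature neutrophils Kif11 was at 142 and 204 CPM. The part of these differences in the calls was not tested beyond the subsets that follow.

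Restricted to cells with a Ly6c2 UMI and none of Ace or Treml4 (54, 13, 201 and 89 cells in WT 1, WT 2, D3TA 1 and D3TA 2), 14 of 42 members were called higher and 0 lower (3.18% of genes in either direction), among them 9 of 11 mitotic kinesins, all but Kif15 and Kif20a, and both outer kinetochore genes. Kif11 was at 5.90 and 27.1 CPM in the WT libraries and 189.5 and 235 CPM in the D3TA libraries in these cells. Restricted to cells not gated as cycling (86, 61, 142 and 83 cells), 4 of 28 members were called (1.51% of genes), 1 of them among the 4 mitotic kinesins tested. There Kif11 was at 1.798 and 0 CPM in the WT libraries and 48.9 and 25.9 CPM in the D3TA libraries and Kif23 at 7.19 and 14.4 CPM in the WT libraries and 34.4 and 34.9 CPM in the D3TA libraries. D3TA was above WT in both subsets for each of these. Both restrictions were chosen after the data were seen. The cycling gate was applied to thinned cells. Unthinned, 2.857% and 19.35% of the monocyte gate in WT and 67.32% and 55.73% in D3TA met the same cut. Cells not gated as cycling can therefore still hold UMIs of cycling genes. The 13 cells of WT 2 in the Ly6c2 subset lie under the minimum of 20 cells per gate and library used for the gates. Whether a cell lacks a UMI of Ace or Treml4 also depends on its depth. The Ly6c2 restriction kept 54 of 105 gated cells in WT 1 (median 2351 UMIs) and 13 of 62 in WT 2 (median 10860 UMIs). Whether it left the same kind of monocyte in each library was not tested.

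**Figure D4:**
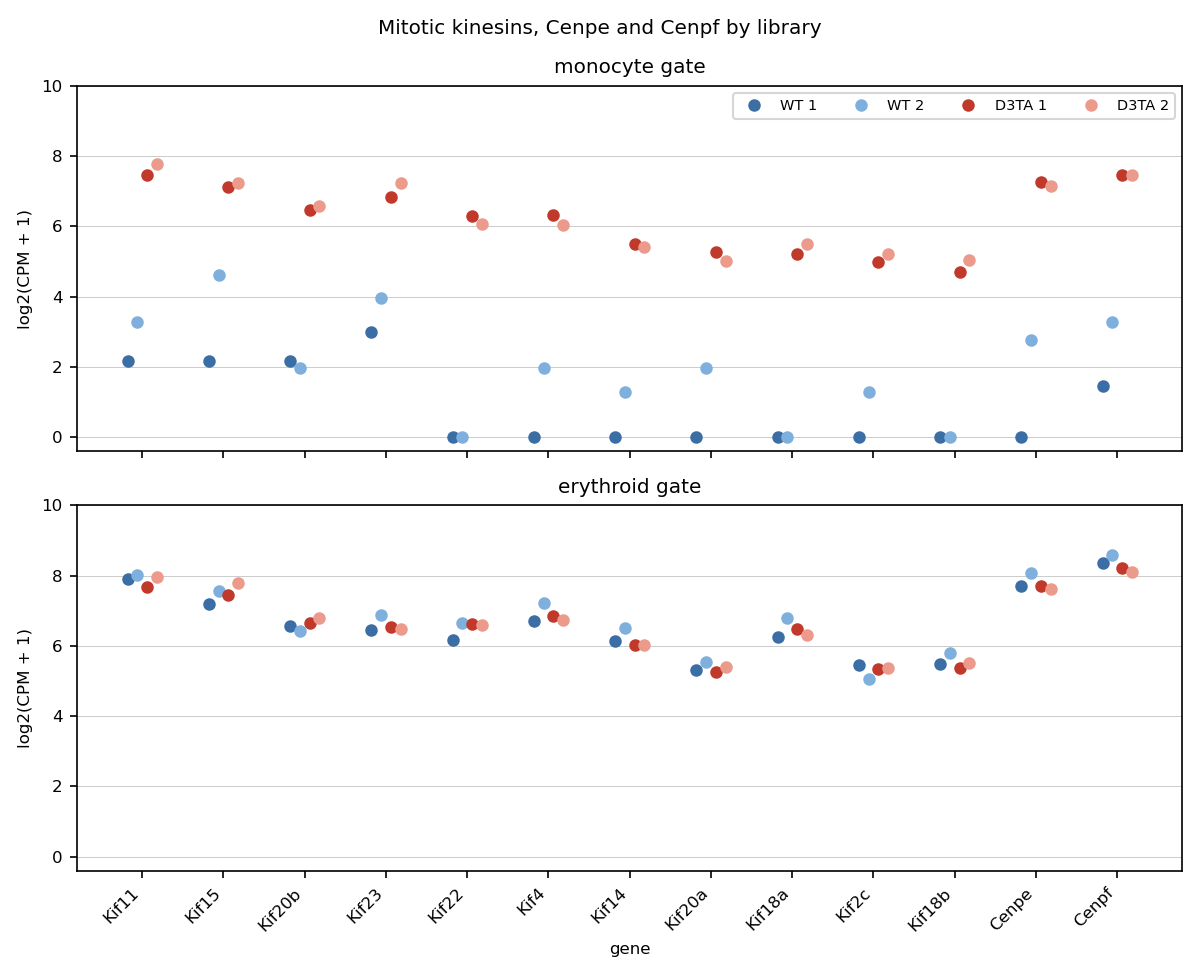
Level of the 11 mitotic kinesins, Cenpe and Cenpf in the monocyte gate (top) and the erythroid gate (bottom), as log2(CPM + 1) with 1 point per library. In monocytes the 2 D3TA points lie above both WT points for each gene, and in erythroid cells the 4 points lie together.

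In the other 7 gates edgeR called 0 members by genotype. In B cells 16 of 49 tested were at an unadjusted p under 0.05 and DESeq2 called 4 (edgeR called 0% of 15609 genes there, DESeq2 1.48%), with a mitotic kinesin median of 1.40 and all 11 higher in both D3TA libraries (16.9% of genes were). Kif11 was at 10.9 and 7.46 CPM in the WT libraries and 30.6 and 22.1 CPM in the D3TA libraries in B cells. In T cells 9 of 50 were at an unadjusted p under 0.05 and DESeq2 called 0 (0.0434% of genes called by edgeR), with a mitotic kinesin median of 0.96 and again 11 of 11 higher in both D3TA libraries (17.9% of genes were). The 12 immature neutrophil markers moved in these gates too, with 12 of 12 higher in both D3TA libraries and none at 0. They summed to 63.9 and 42.7 CPM in WT and 829.9 and 919 CPM in D3TA in B cells, and to 34.8 and 28.4 CPM in WT and 1116 and 809.5 CPM in D3TA in T cells. D3TA replicate 1 stood apart in these gates, with the transcription factor Sox5 at 3210 CPM in B cells against 121.5 to 425 in the other libraries, and the cytotoxic granule gene Nkg7 at 1681 CPM in T cells against 290.2 to 329.6. Without D3TA replicate 2, which leaves replicate 1 as the only D3TA library, 19 members were called in B cells (15.2% of genes) and 10 in dendritic cells (12.1%). The part of the neutrophil markers and of the shifted cell makeup in the B and T cell values was not tested.

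In erythroid cells the levels of both genotypes overlapped for 9 of 11 mitotic kinesins (67.8% of genes did), the median was -0.23, and 1 of 45 members was at an unadjusted p under 0.05 (0 by DESeq2; 0.211% of genes called). Kif15 was at 147 and 189.7 CPM in the WT libraries and 176 and 219 CPM in the D3TA libraries in that gate. In the other gates the counts at an unadjusted p under 0.05 were 3 of 47 for dendritic cells, 2 of 20 for mature neutrophils, 1 of 46 for plasma cells and 0 of 14 for macrophages, with 0 by DESeq2 in each. The percentages of all genes called were 0.239%, 2.09%, 0.009% and 0.152%. With 2 libraries per genotype most simulated 2-fold changes were not found: 22% were recovered in erythroid cells and 5.49% in mature neutrophils, and in the larger sums 30% in B cells and 31% in the whole spleen. Of 4-fold changes 94%, 66.7%, 99% and 100% were recovered. The genotype difference itself differed between gates. It was larger in monocytes than in erythroid cells for 26 of 46 members tested (3.61% of 11338 genes were larger there), and smaller for 0, with 24 to 27 members called when 1 library was left out. It was larger than in B cells for 16 of 51 (1.64% of genes were) and than in T cells for 22 of 48 (2.61%). Without WT replicate 1 these counts were 5 and 8.

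Among cycling-gated cells alone the mitotic members were nearly level between genotypes, and some transport kinesins were called higher in D3TA. Of 49 members, 6 were called higher in D3TA (11.8% of 13798 genes were) and 1 lower (5.98%). The share of members called higher was thus close to that of all genes. Kif11 was at 253 and 256 CPM in the WT libraries and 227 and 303 CPM in the D3TA libraries (adjusted p = 0.437), Cenpf at 329.5 and 358 CPM in the WT libraries and 298 and 331 CPM in the D3TA libraries and Cenpe at 252 and 271 CPM in the WT libraries and 208 and 232 CPM in the D3TA libraries. By CPM the D3TA libraries lay around or below the WT ones in these 3 genes. The fit, which rescales the libraries, gave log2 fold changes of 0.25 for Kif11, 0.07 for Cenpf and -0.05 for Cenpe. Its fold changes can thus lie above those read from CPM. Of the mitotic kinesins Kif2c alone was called, with 39.2 and 39.1 CPM in the WT libraries and 46.9 and 57.5 CPM in the D3TA libraries (log2 fold change 0.61 ± 0.17 SE, adjusted p = 0.042), and no outer or inner kinetochore gene was, by edgeR or DESeq2 (2 inner kinetochore genes at an unadjusted p under 0.05). The mitotic kinesin median was 0.26.

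Of 13 transport kinesins tested 5 rose, where 11.8% of all genes were called higher. Kif13a was at 21.5 and 23.5 CPM in the WT libraries and 50.8 and 77.9 CPM in the D3TA libraries (log2 fold change 1.70 ± 0.22 SE, adjusted p = 0.00098). Kif1b was at 23.2 and 20.9 CPM in the WT libraries and 43.5 and 83.8 CPM in the D3TA libraries (log2 fold change 1.71 ± 0.27 SE, adjusted p = 0.00327). Kif13b was at 51.6 and 60.4 CPM in the WT libraries and 77.4 and 83.1 CPM in the D3TA libraries (log2 fold change 0.72 ± 0.18 SE, adjusted p = 0.0268). For each of these the D3TA libraries were above both WT libraries, as they were for Kif21b, with 27.1 and 22.2 CPM in the WT libraries and 34.6 and 38.9 CPM in the D3TA libraries, and for Kif17, with 0.6504 and 0.753 CPM in the WT libraries and 2.67 and 5.54 CPM in the D3TA libraries. Kif5b did not pass, with 149 and 166 CPM in the WT libraries and 192 and 225 CPM in the D3TA libraries (adjusted p = 0.0601). Cenpv fell, with 83.9 and 81.5 CPM in the WT libraries and 27.7 and 44.1 CPM in the D3TA libraries (log2 fold change -1.02 ± 0.21 SE, adjusted p = 0.0114). The cells gated as cycling were of different classes in the 2 genotypes: immature neutrophils were 1.22% and 3.08% of them in WT and 46.4% in each D3TA library, erythroid cells 22.15% and 40.0% against 11.4% and 13.6%, and B cells 42.7% and 23.1% against 5.76% and 9.65%. The 12 erythroid markers summed to 2915 and 4186 CPM in WT and 1352 and 1937 CPM in D3TA, and the 12 immature neutrophil markers to 1725 and 4253 against 44930 and 37450 CPM. The part of this makeup in the 7 calls was not tested. Without WT replicate 1, 4 members were called, and Kif2c, Kif13b and Kif21b were not among them. Kif21b was not called without WT replicate 2 either, nor Kif17 and Kif2c without D3TA replicate 2.

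Within cycling cells the members differed between the 2 phase gates. Sums of cells gated as G2/M were compared with sums of cells gated as S in the same libraries, over 12061 genes and 48 members, with phases called from genes that are not members. The 2 sums also differed in cell class. Immature neutrophils were 192 of 606 S and 614 of 1136 G2/M cells in D3TA 1, and 112 of 417 and 359 of 612 in D3TA 2. Erythroid cells were 91 S and 110 G2/M cells in D3TA 1, and 99 and 44 in D3TA 2. The part of this makeup in the differences was not tested. All 11 mitotic kinesins were higher in G2/M, where 14.4% of all genes were called higher, with a median of 1.16 against 0.04 over all genes and values from 0.35 (Kif15) to 1.35 (Kif23). Kif23 was at 92.2, 95.6, 78.7 and 102 CPM in the S cells and 226, 209, 184 and 233 CPM in the G2/M cells of WT 1, WT 2, D3TA 1 and D3TA 2 (log2 fold change 1.35 ± 0.08 SE, adjusted p = 0.000592). Kif11 was at 200.3, 180.2, 163 and 229 CPM in S and 322, 346, 272 and 365 CPM in G2/M (0.90 ± 0.08 SE). Kif15 was at 159, 186, 163 and 226 CPM in S and 183, 202, 192 and 268 CPM in G2/M (0.35 ± 0.08 SE), a smaller step than in any other mitotic kinesin, though G2/M was above S in all 4 libraries, and it was not called without either D3TA library. Cenpf had the largest difference of the members, at 155, 152, 125 and 164 CPM in S and 609.8, 618, 427 and 489 CPM in G2/M (1.97 ± 0.08 SE), and Cenpe was at 159, 151, 125 and 145 CPM in S and 410.0, 417, 267 and 306 CPM in G2/M (1.39 ± 0.08 SE).

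The inner kinetochore genes went both ways, with 4 of 16 higher and 3 lower in G2/M (11.4% of all genes were lower). Cenpa, loaded onto chromatin after mitosis, was at 177, 180.2, 168 and 174 CPM in S and 323, 329.7, 326 and 288 CPM in G2/M (1.00 ± 0.08 SE). Cenpl, Cenpc1 and Cenpt were also higher, by 1.00, 0.98 and 0.72. Cenph was at 82.8, 124, 108 and 124 CPM in S and 35.6, 67.5, 67.8 and 66.8 CPM in G2/M (-0.73 ± 0.11 SE, adjusted p = 0.00608). Cenpk, which forms a complex with Cenph, was at 79.8, 128, 84.8 and 105 CPM in S and 55.3, 77.3, 55.7 and 56.6 CPM in G2/M (-0.55 ± 0.09 SE). Cenps was lower as well, by -0.55, and its call, like that of Cenpt, was lost without either D3TA library (for Cenps, adjusted p = 0.118 without replicate 1 and 0.0509 without replicate 2). TTTGAA or TTTAAA was in the promoters of all 4 inner kinetochore genes that were higher in G2/M and of 0 of the 3 that were lower, sets chosen by these values and too small for a test. Cenpn and Cenpw also held TTTGAA and were not called (0.238 and -0.2161). Outside this group Kif18a, Kif3b and Kif1b held neither motif and were higher in G2/M (1.155, 0.9475 and 0.9111).

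Of 12 transport kinesins tested, Kif21b, Kif3b and Kif1b were higher in G2/M, by 1.17, 0.95 and 0.91, and 0 were lower. Kif3b was at 22.2, 22.2, 20.2 and 24.4 CPM in S and 37.5, 36.8, 35.3 and 43.3 CPM in G2/M. Kif1b was at 22.2, 20.3, 30.8 and 51.7 CPM in S and 30.7, 24.2, 52.5 and 110.0 CPM in G2/M, with the D3TA libraries above the WT ones in both phases. Kif21b and Kif1b were not called without either D3TA library. Cenpb was lower in G2/M (-0.42), and kept that call only without WT replicate 2. Of the kinetochore and spindle genes that are no members, 21 of 30 were higher and Zwint alone was lower, and of the transport partners Klc2 and Klc4 were higher, 2 of 11. Cells took their phase from the larger count of a short gene panel, so S and G2/M here are ranges of a score: 3811 cells lay within 1 gene of the limit for cycling.

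**Figure D5:**
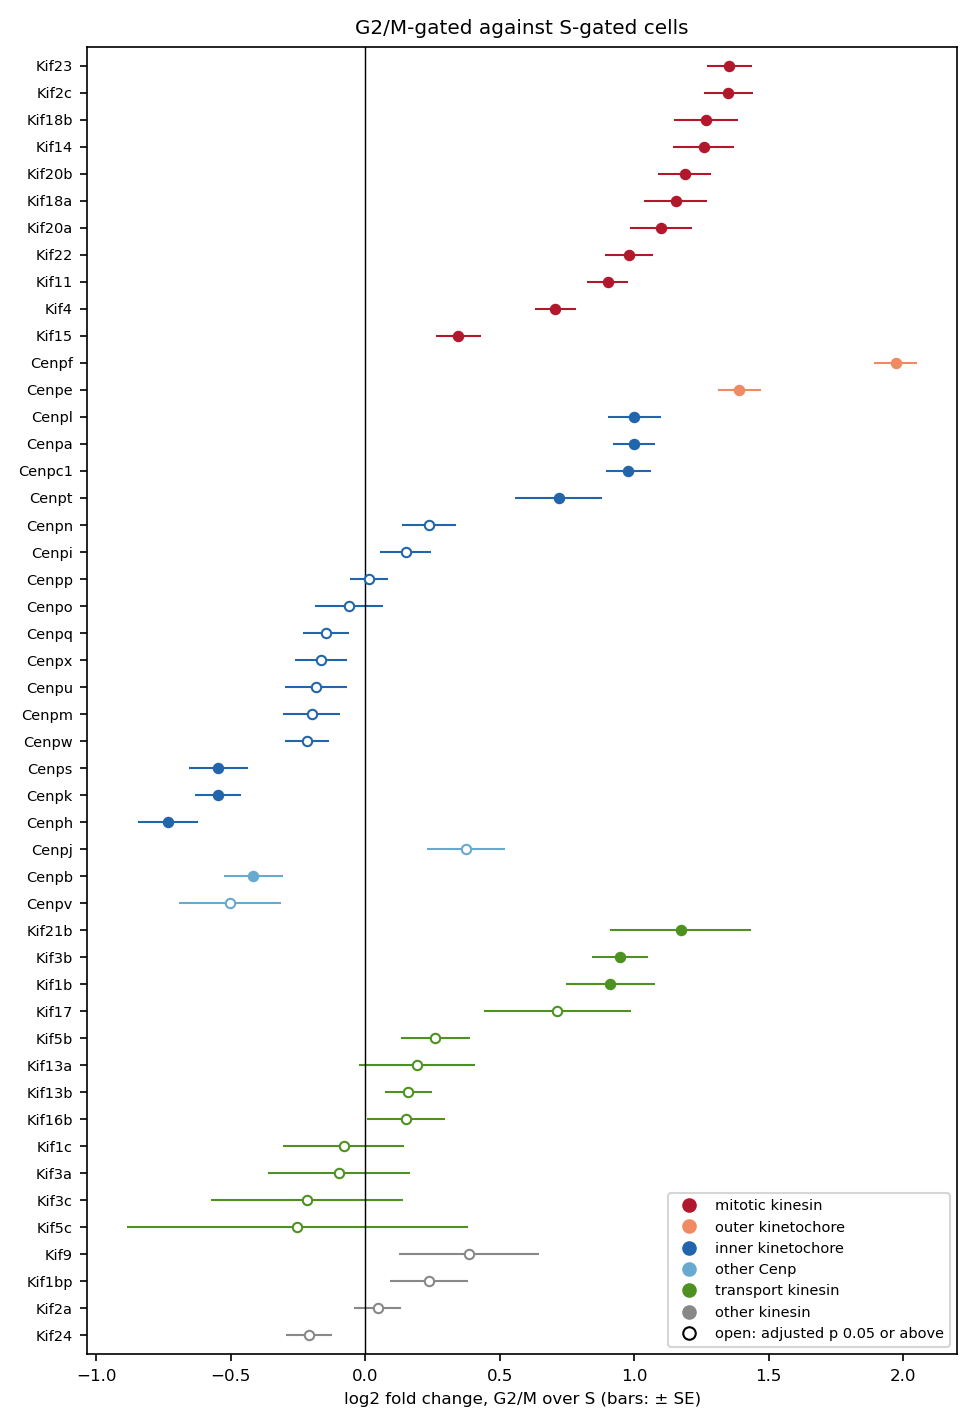
Log2 fold change of each tested member between cells gated as G2/M and as S, over 4 libraries with the library as a block, with bars of ± 1 SE. Filled points passed an adjusted p of 0.05: Cenpf lies farthest right at 1.97 and Cenph farthest left at -0.73.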

How the data were processed

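The deposited values are whole-number counts of UMIs per gene and barcode. Per the file headers the authors ran Cell Ranger 7.0.1, and the submitters' processing notes name mm10. Not given in the sources used here are the annotation release and whether introns were counted. The members and gene lists were chosen with earlier results of these data known.

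Barcodes with at least 500 UMIs, 250 genes and at most 10% mitochondrial UMIs were kept. A cell joined 1 of 13 classes when its mean score over that class's markers (124 genes in all) was at least 0.1 and 1.5 times the next, with 3 markers detected. No doublet caller was run. Cells thinned to 1000 UMIs were gated as cycling, and as S or G2/M by whichever panel had more genes detected. Counts were summed per library and gate and tested in R 4.3.3 with edgeR 4.0.16 (filterByExpr, TMM, quasi-likelihood test, Benjamini-Hochberg adjustment over all genes, two-sided, threshold 0.05). A comparison of classes needed 20 cells per gate and library, with the library as a block. The steps were tested on simulated counts. There the share of false calls was 8.39% in the whole spleen, 5.76% in cycling-gated cells and 5.69% in erythroid cells, above the nominal 0.05. In the other comparisons simulated it was 0% to 4.76%.

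Genes were named by rule: called members with libraries that did not overlap, up to 10 per direction and group by size, mitotic, outer kinetochore and transport genes of at least 5 CPM also where not called, and up to 3 partner genes per direction. Members named for losing a call, or named outside these limits, were chosen after their values were seen.

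Alternatives were DESeq2 1.42.0, median-ratio scaling, keeping genes of low count, each library left out, a replicate block, stricter cells and gates, all barcodes, leaving out neutrophil, erythroid or highest-UMI cells (top 5%), 1 more cycling gene and unthinned cells. A crossed block, the 2 monocyte subsets, the whole spleen without cycling-gated cells and the fits of monocytes against other gates were added after the data were seen. Intervals and limits for a count of 0 (3 UMIs) cover counting error only. Replicate numbers do not pair the mice in the labels.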

Additional observations from a re-analysis of the deposited data

Results flagged for a closer look

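For part of the members the effect of genotype was larger in the monocyte gate than in the erythroid, B cell or T cell gate. The remaining gates were not compared with monocytes. The test of that difference is an interaction fit over both gates with the library as a block, edgeR's quasi-likelihood test with Benjamini-Hochberg adjustment, chosen after the data were seen. Against erythroid cells 26 of 46 members had a larger effect in monocytes (3.61% of all genes did). Against B cells 16 of 51 did (1.64% of all genes) and against T cells 22 of 48 (2.61%). Without WT replicate 1 the counts against B and T cells were 5 and 8, and without WT replicate 2 the count against T cells was 11.

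As log2 fold changes in monocytes minus those in erythroid cells, the differences were 5.08 for Kif11, 3.17 for Kif15, 4.54 for Kif20b, 3.74 for Kif23, 5.70 for Kif4, 6.02 for Kif14, 4.53 for Kif20a and 5.18 for Kif2c. At the outer kinetochore they were 5.79 for Cenpe and 5.31 for Cenpf. The values for Kif18a (10.19), Kif18b (9.74) and Kif22 (10.71) have no WT monocyte UMI behind them, so they depend on the prior count of the fit and are no bound. Of the WT monocyte libraries, Kif4, Kif14, Kif20a and Kif2c had UMIs in 1 only. No transport kinesin was called between these gates (0 of 10 tested), which is close to the 3.61% of all genes with a larger effect in monocytes.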

How the results depend on the processing

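Over 80 counts of called members recomputed with 1 library left out, 65 kept their size within 1.5 times, and over 82 values under the other alternatives 71 did. Of single called members, 1004 of 1200 values kept direction and call with 1 library left out, and 830 of 933 under the other alternatives.

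In the whole spleen the 24 members called became 0 without the neutrophil-lineage gates, 1 without cycling-gated cells, 14 without the cells of most UMIs, and 0 to 32 with 1 library left out. Over all genes DESeq2 called 2471 against 1106 by edgeR. The 27 of the monocyte gate became 14 in the Ly6c2 cells without Ace or Treml4, 4 without cycling-gated cells and 26 to 30 with 1 library left out. B cells went from 0 to 4 by DESeq2 and ranged from 0 to 19 with 1 library left out. With no filter on low counts 1 member was called in each of the mature neutrophil, macrophage and dendritic cell gates, and the ranges with 1 library left out were 0 to 2, 0 to 0 and 0 to 10. They were 0 to 1 in plasma cells and 0 to 0 in T and erythroid cells. In cycling-gated cells the 7 calls became 4 with 1 more gene required and 4 to 8 with 1 library left out. Between classes those ranges were 42 to 43 for erythroid cells, 25 to 42 for mature neutrophils, 22 to 36 for macrophages, 7 to 15 for dendritic cells, 33 to 40 for immature against mature neutrophils and 10 to 13 for T against B cells, and 18 to 25 for G2/M against S. For the genotype effect in monocytes they were 24 to 27 against erythroid, 5 to 23 against B and 8 to 27 against T cells. The difference in cycling share became 24.55 percentage points unthinned. Kif17 between T and B cells ranged from -2.59 to 0.022 with 1 library left out, reversed without D3TA replicate 1. For each the cause was not tested.

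With the replicate number as a block, 25 members were called in the whole spleen, 27 in monocytes, 6 in cycling-gated cells and 0 in the other gates. The block ended the call of Kif2c in cycling-gated cells. Deviations of same-numbered libraries correlated at -0.102 across 18426 genes, and with the pairs crossed 26 members and 2183 genes were called. Leaving out low-count genes or not moved the median log2 fold change of all genes by 0.183 in monocytes, 0.268 in mature neutrophils and 0.173 in cycling-gated cells. WT replicate 1 is the shallowest library, which limits its small gates: a member at 0 UMIs there may lie under the limit of detection.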

Other observations

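Neither of 2 further gates had 20 cells in both WT libraries, so the genotypes were not tested there. The neutrophil precursor gate, defined by genes of the first granules such as Elane and Mpo, had 36 and 1 cells in WT and 279 and 137 cells in D3TA. The mitotic kinesins with Cenpe and Cenpf summed to 752 and 1046 CPM there in D3TA, and 61.0% and 69.2% of its thinned cells were gated as cycling. In WT replicate 1 they summed to 151 CPM, from 15 UMIs, and 2 of 32 thinned cells were gated as cycling (6.25%, exact 95% binomial interval 0.766% to 20.8%), at a median of 2769 UMIs per cell against 30246 and 33900 in D3TA. The cell of WT replicate 2 held 4 such UMIs. The transport kinesins summed to 391 and 591 CPM in D3TA and 473 CPM in WT replicate 1.

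The basophil or mast cell gate had 18 and 2 cells in WT and 63 and 26 in D3TA. Its mitotic sum was 1552 and 1084 CPM in D3TA, from 991 and 311 UMIs, and 44.3% and 50% of its thinned cells were gated as cycling (exact 95% binomial intervals 31.6% to 57.5% and 29.9% to 70.1%). The 18 cells of WT replicate 1 gave 4 such UMIs and 0 of 16 thinned cells gated as cycling, which allows a share of up to 20.6%. The 2 cells of WT replicate 2 gave 6 such UMIs, and 1 was gated as cycling. Kif17 was at 0 UMIs in all 4 libraries of this gate.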
